A study of Sus scrofa domesticus with 6 samples.

Results

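The 34 genes described here are the cell cycle and DNA replication genes TOP2A, CDK1, PCLAF, STMN1, TYMS, RRM1, PCNA, MCM2 to MCM7, the cyclins CCNA2, CCNB1, CCNB2 and CCNE2, and their partners in replication and mitosis. They were chosen by name, and each was looked up as a feature of exactly that name in 6 single-cell RNA libraries of pig lung. All 6 libraries list 30 of them, among 23556 genes listed in all libraries. No library lists a feature named MKI67, RRM2 or AURKA. MCM5 is listed in the 3 control libraries alone, so it entered no comparison, and its level there over all cells was 63.5, 60.4 and 59.9 CPM. UMIs (unique molecular identifiers) count captured RNA molecules, and CPM is the UMI count of a gene scaled to the same total in every library or class.

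The study transplanted a single pig lung and asked what prolonged cold ischemia and reperfusion injury (IRI) does to its cells. The control group holds 3 libraries of unsorted cells from the right lung of donors, without transplantation. The IRI grafts had 24 h of cold ischemia and 8 h of reperfusion, and live cells were sorted by the pan-leukocyte protein CD45 into 2 IRI CD45+ libraries and 1 IRI CD45- library. Breed, age and sex are not in the labels, and neither is which graft goes with which donor lung. Every IRI library was sorted and no control was, so effects of the sort and of the injury cannot be told apart.

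Dividing cells copy their DNA in S phase and part the copies in mitosis after a gap, G2, and many genes of both steps are transcribed only then. Of the 30 genes counted, 13 act in S phase: the helicase subunits MCM2, MCM3, MCM4, MCM6 and MCM7, their partner GINS2, the sliding clamp PCNA and its binding protein PCLAF, the nucleotide-making enzymes RRM1, TYMS and TK1, the methylation cofactor UHRF1 and the S phase cyclin CCNE2. Another 16 act in G2 and mitosis (G2/M): the kinases CDK1, PLK1, BUB1 and AURKB with its partner BIRC5, the cyclins CCNA2, CCNB1 and CCNB2, the chromosome-untangling enzyme TOP2A, the kinetochore proteins CENPE and CENPF, the spindle proteins TPX2 and NUSAP1, UBE2C and CDC20, which help to destroy mitotic cyclins, and the chromatin protein HMGB2. STMN1, which takes microtubules apart, was kept apart from both. Lymphocytes divide when activated and antibody-secreting cells arise from dividing precursors, while neutrophils and alveolar cells of the healthy lung rarely divide.

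The libraries held 19098567 to 40647380 UMIs and 4068 to 15017 kept cells, 40764 in all after doublet removal. Every control cell had more than 1000 UMIs, whereas the lowest totals in the IRI libraries lay between 74 and 117, and the IRI libraries list no mitochondrial gene. The matrices therefore passed different steps before deposit, and CPM are taken over the genes listed in all 6 libraries. For the share of cells with 3 or more members, each cell was thinned at random to 1000 UMIs, since a deeper cell shows more genes. This kept 35105 cells and left out 5659 shallower ones. The labels do not say that libraries of a group come from different animals, so p-values measure the spread between these libraries. Cell classes were rebuilt from marker genes after clustering without cell cycle genes, and each carries the ending "-like".

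Cells with 3 or more members were lymphoid above all. In the controls they made up 27.2%, 25.2% and 23.5% of all cells, against 9.27% and 7.43% after the CD45+ sort and 1.67% after the CD45- sort. The highest share was in cytotoxic-like cells, which hold natural killer and cytotoxic T cells together: 44.4%, 47.3% and 50.2% in the controls. These cells made up 19.3% to 23.3% of the control cells thinned and 36.3% to 42.3% of those with 3 or more members.

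In the grafts, 15.8% and 14.6% of cytotoxic-like cells had 3 or more members, well under every control. The group means were 47.3% ± 2.90 (SD, n = 3) and 15.2% ± 0.852 (SD, n = 2). T-like cells stood at 26.4%, 33.4% and 34.6% in the controls and at 6.18% and 8.03% in the grafts, and again no graft library reached a control.

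B-like cells and cluster 13 showed the same order of groups. In B-like cells the share was 28.6%, 30.9% and 25.8% in the controls and 13.1% and 10.3% in the grafts. Cluster 13 had 30.7%, 34.4% and 25.9% against 8.53% and 8.76%. That cluster passed no rule for a name and is led by RHEX, BLK, SOX13 and GATA3; unlike the T-like class it is 1 cluster with cells from all libraries.

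Plasma-like cells, marked by JCHAIN, MZB1 and TNFRSF17, did not follow. Their share was 35.0%, 33.3% and 33.9% in the controls and 30.4% and 37.3% in the grafts, so the groups overlapped. The means differed by 0.18 percentage points at 34.1% ± 0.828 (SD, n = 3) and 33.9% ± 4.88 (SD, n = 2). Only 92 and 75 graft cells of this class were deep enough to enter, and the exact 95% binomial (Clopper-Pearson) intervals, which cover counting error only, were 21.3% to 40.9% and 26.4% to 49.3%. A difference of several percentage points in either direction could not be seen at this depth.

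**Figure D1:**
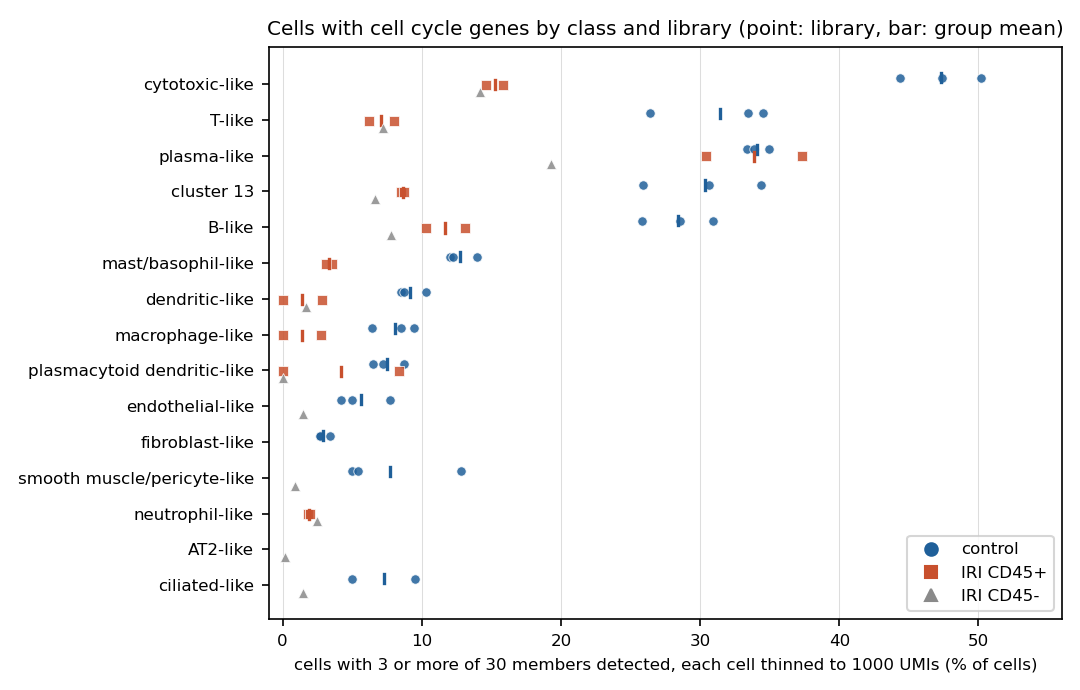
Share of cells in which 3 or more of the 30 members were detected after each cell was thinned to 1000 UMIs (x axis, % of cells), for each class (rows) and library (circles control, squares IRI CD45+, triangles IRI CD45-), with the group mean as a vertical bar. Control and IRI CD45+ points stand apart in cytotoxic-like, T-like, cluster 13 and B-like cells, and overlap in plasma-like cells at 30.4% to 37.3%.

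With 3 libraries against 2, the exact 2-sided permutation test cannot go below p = 0.1, so no share could pass a threshold of 0.05. This exact permutation test gave that smallest p in 7 of the 9 immune classes (adjusted p = 0.129), p = 1 in plasma-like cells and p = 0.4 in plasmacytoid dendritic-like cells. Most control cells of the T-like, cytotoxic-like and B-like classes lay in other clusters than most graft cells: clusters 0, 1 with 15, and 8 in the controls, and 23, 4 and 24 in the grafts. The T-like control cluster was led by ICOS, CD40LG, CTLA4 and LAG3, which activated T cells carry, and the T-like graft cluster by LEF1, IL7R, S1PR1 and TCF7, known from resting and circulating T cells. Whether these are the same cells in another state cannot be told apart from other cells in their place. Plasma-like cells were 1 cluster, number 5, in both.

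The split of T-like from cytotoxic-like cells moved with the clustering. When cell cycle genes were allowed among the variable genes, a cluster of 1015 cells formed, 1003 of them from controls, in which 97.0% of thinned cells had 3 or more members. It drew 704 cytotoxic-like and 238 T-like cells and passed no rule for a name. The cytotoxic-like class of that clustering also took in 1193 control and 69 IRI CD45+ cells that were T-like before. Its shares were 27.75%, 31.43% and 34.02% in the controls and 17.7% and 15.6% in the grafts. As a set that rests on no clustering, all cells with a UMI of the T cell receptor subunits CD3D or CD3E, chosen after seeing this, had shares of 38.2%, 42.4% and 43.7% in the controls and 10.4% and 10.9% in the grafts. The gap was 30.8 percentage points, with p = 0.1 by the exact permutation test. This set also takes in cells that should lack CD3: a UMI was found in 2.57%, 3.78% and 5.47% of control B-like cells (medians of 2816, 3104 and 2689 UMIs) and in 14.4% and 10.9% of graft ones (4425 and 4933 UMIs). Cells of the set had medians of 2905 to 3085 UMIs in the controls and 3917 and 3809 in the grafts. The part of such cells in the gap was not tested.

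The lymphocytes that slipped into the IRI CD45- library offered a graft library with the opposite sort. Their shares were 14.2% in cytotoxic-like, 7.22% in T-like, 7.80% in B-like, 6.67% in cluster 13 and 19.3% in plasma-like cells. The first 4 lay below every control, as in the IRI CD45+ libraries. The plasma-like value rests on 57 cells, with an interval of 10.05% to 31.91% that ends below the control shares.

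In the other myeloid and structural classes fewer cells reached 3 members than in the lymphoid classes of the controls. Mast/basophil-like cells had 12%, 12.2% and 14% in the controls, from 25 to 50 cells, and 3.53% and 3.13% in the grafts, without overlap. Macrophage-like cells had 6.42%, 9.42% and 8.50% in the controls, while 1 of 36 and 0 of 31 graft cells reached 3 members, the latter allowing up to 9.68% by a limit of 3 cells of the total. Dendritic-like cells had 8.54%, 10.3% and 8.73% against 2.86% and 0% of 60 cells, which allows up to 5% by the same limit. Fibroblast-like cells of the controls, a mostly resting class, had 2.70%, 3.39% and 2.72% at median depths of 3990, 3261 and 3558 UMIs. In the grafts, neutrophil-like cells, which have left the cycle, had 1.82% and 2.01%, and AT2-like cells, the surfactant-making cells of the alveolus, had 0.191% of 7328. Free RNA in the droplets was not estimated, and its part in any of these shares was not tested. The graft macrophage-like and dendritic-like shares rest on few cells, so their distance from these classes cannot be read.

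Basal-like cells, the airway stem cells found almost only in the IRI CD45- library, stood above the AT2-like cells of the same library. Their share was 3.74% (interval 2.00% to 6.30%, 348 cells), and S members were at 451 CPM against 231 for G2/M members. In AT2-like cells the order was opposite, 103 for S and 157 for G2/M members. Most of that G2/M level came from HMGB2 at 85.4 and NUSAP1 at 53.0 CPM, so the order cannot be read as a phase. Levels of single members in basal-like cells are not given here. The controls hold 1 AT2-like and 4 basal-like cells in all, too few to set beside them.

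Most member RNA came from a small group of cells that carried many members at once. Before thinning, 23.2%, 26.4% and 26.3% of control cytotoxic-like cells had 10 or more members, and these held 84.6% to 86.5% of the members' UMIs in the class. In the grafts such cells were 7.77% and 9.71%, and held 70.2% and 76.9%. Among plasma-like cells they were 26.6%, 24.8% and 23.9% in the controls and 24.7% and 27.8% in the grafts.

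Within these cells the levels were nearer. S members stood at 3733, 3484 and 3992 CPM in control cytotoxic-like cells with 10 or more members, and at 2688 and 3082 in the grafts. G2/M members stood at 6755, 6690 and 7182 against 5803 and 5416. In cytotoxic-like cells with fewer than 10 members, S members stood at 832, 797 and 879 CPM in the controls and at 468 and 423 in the grafts. These classes by number of members use the members themselves, so the values are a description. Graft cells of the class were deeper, with medians of 3064 and 2882 UMIs against 2152 to 2447 in the controls, and without thinning the graft shares with 3 or more members were 40.4% and 36.1% against 60.3% to 68.3%.

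**Figure D2:**
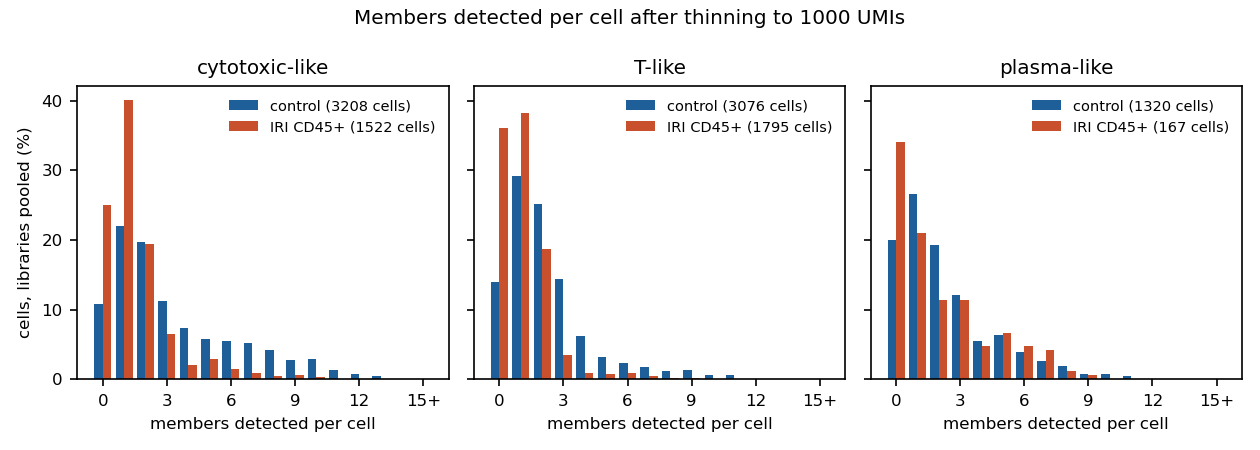
Number of the 30 members detected per cell after thinning to 1000 UMIs (x axis, 15 stands for 15 or more) against the share of cells (y axis, %, libraries of a group pooled), for control (blue) and IRI CD45+ (orange) cells of 3 classes. In cytotoxic-like and T-like cells the control bars are higher from 3 members on. The exception is 14 members in cytotoxic-like cells, at 0.0623% in the controls and 0.0657% in the grafts. In plasma-like cells the bars from 3 members on are alike and more graft than control cells have none.

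Summed over the S members, cytotoxic-like cells had 2530, 2361 and 2796 CPM in the controls and 1105 and 1359 in the grafts, a change of -1.06 on the log2 scale. G2/M members had 4676, 4576 and 5089 against 2363 and 2546, a change of -0.96. In T-like cells S members had 1742, 1608 and 1853 against 693 and 758, and G2/M members 2921, 3073 and 3093 against 922 and 1340. Both phases thus stood lower in every graft library than in any control, in both classes.

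B-like cells differed less in S members than in G2/M members. S members had 1034, 1171 and 1142 CPM in the controls and 894 and 875 in the grafts. G2/M members had 2118, 2536 and 2062 against 1309 and 1301. The ratio of G2/M to S was 2.05, 2.17 and 1.81 in the controls and 1.46 and 1.49 in the grafts, which did not overlap (p = 0.1 by the exact permutation test, adjusted p = 0.5 over 5 classes). Among plasma-like cells the S level was 1721, 1626 and 2171 against 1528 and 1750, and the G2/M level 2091, 2138 and 2452 against 1884 and 2143, with overlap in both.

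Of the 18 levels tested, S and G2/M in 9 immune classes, those of mast/basophil-like and plasma-like cells overlapped between the groups. The others did not, and each gave p = 0.1 by the exact permutation test, the smallest it allows (adjusted p = 0.129).

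**Figure D3:**
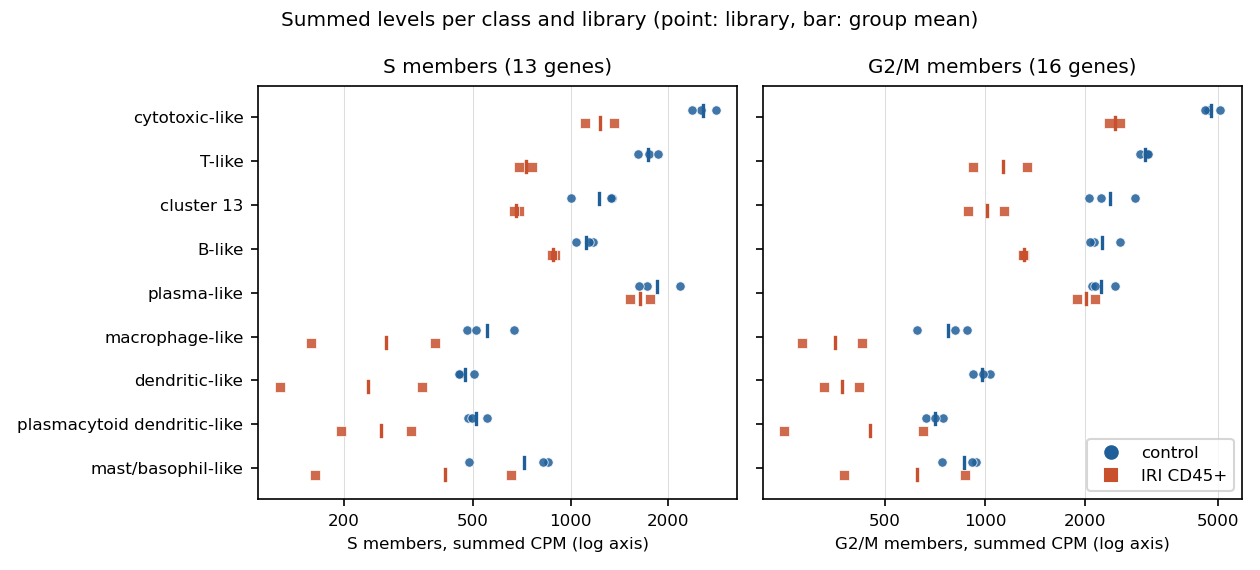
Summed CPM (x axis, log scale) of the 13 S members (left) and 16 G2/M members (right) by class and library, with the group mean as a vertical bar. Control (blue) and IRI CD45+ (orange) points are apart in cytotoxic-like, T-like, cluster 13 and B-like cells, and overlap in plasma-like cells.

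Single members were then tested in each class with edgeR's quasi-likelihood test on summed UMIs, with Benjamini-Hochberg adjustment over all genes and a threshold of 0.05. In cytotoxic-like cells all 30 members tested fell in the grafts and none rose, where 31.2% of all genes tested fell and 27.5% rose. Of the 30 tested in T-like cells, 29 fell, against 31.1% of all genes, and 1 rose, against 27.5%. The median member changed by -1.23 in cytotoxic-like and -1.75 in T-like cells on the log2 scale, beside medians of -0.04 over all genes in both. Before any test, the graft libraries lay below every control for 29 of 30 members in T-like and 30 of 30 in cytotoxic-like cells, where 42.6% and 40.2% of all genes did.

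Among the S members of T-like cells, PCLAF stood at 277, 235 and 330 CPM in the controls and at 55.3 and 79.6 in the grafts. Its fitted log2 change was -1.94 ± 0.18 (SE, edgeR adjusted p = 5.8e-07). TYMS, which makes the thymidine base for DNA, stood at 194, 198 and 193 against 77.1 and 84.0. PCNA stood at 446, 414 and 502 against 169 and 227. In all 3 the graft libraries were clear of the controls.

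CCNE2 had the largest fall among the S members of T-like cells, from 115, 85.4 and 112 to 14.7 and 10.2 CPM, which is -2.90 ± 0.21 (SE) on the log2 scale (adjusted p = 1.1e-08 by edgeR). RRM1, the large subunit of the enzyme that makes deoxynucleotides, was the member that rose there, from 108, 105 and 101 to 149 and 103. Its log2 change was 0.40 (edgeR adjusted p = 0.030), but 1 graft library lay among the controls. The call was lost without any 1 of the controls, without IRI CD45+ replicate 1, with DESeq2 and with no scaling beyond library totals.

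Among the G2/M members of T-like cells, CDK1, the kinase that drives entry into mitosis, stood at 65.7, 70.9 and 71.1 CPM in the controls and at 5.80 and 12.1 in the grafts. Its partner cyclin CCNB1 stood at 53.3, 61.7 and 55.2 against 6.53 and 15.6. The log2 changes were -2.89 ± 0.23 and -2.30 ± 0.26 (SE). TOP2A fell less, from 189, 177 and 180 to 56.4 and 75.5, a change of -1.34. HMGB2, much the most abundant member, fell from 1782, 1835 and 1861 to 674 and 993.

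The same genes in cytotoxic-like cells began higher. PCLAF stood at 533, 450 and 608 CPM in the controls and 175 and 201 in the grafts. MCM4 stood at 187, 201 and 207 against 70.0 and 97.1, and the other MCM subunits also fell. CDK1 stood at 130, 132 and 135 against 34.5 and 31.2, which is -1.96 ± 0.12 (SE) on the log2 scale (adjusted p = 5.98e-09 by edgeR). STMN1 stood at 1142, 1254 and 1319 against 458 and 525. For none of these did a graft library reach a control.

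These cytotoxic-like calls depended on how cells were assigned. The clustering with cell cycle genes left 971 control cells of the class unnamed, and 84% of those thinned had 3 or more members. It also moved T-like cells into the class. In the class so made, 6 members fell and 16 rose. Among them PCLAF changed by 0.45, TOP2A by 1.95 and CCNB1 by 0.95. In T-like cells that clustering left 22 of 30 members lower and 1 higher. The share of all genes called under that clustering is not given here, so these counts cannot be set beside it. Over all cells with a UMI of CD3D or CD3E, 29 of 30 members fell and 0 rose, against 32.5% and 30.6% of all genes, with a median change of -1.33.

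**Figure D4:**
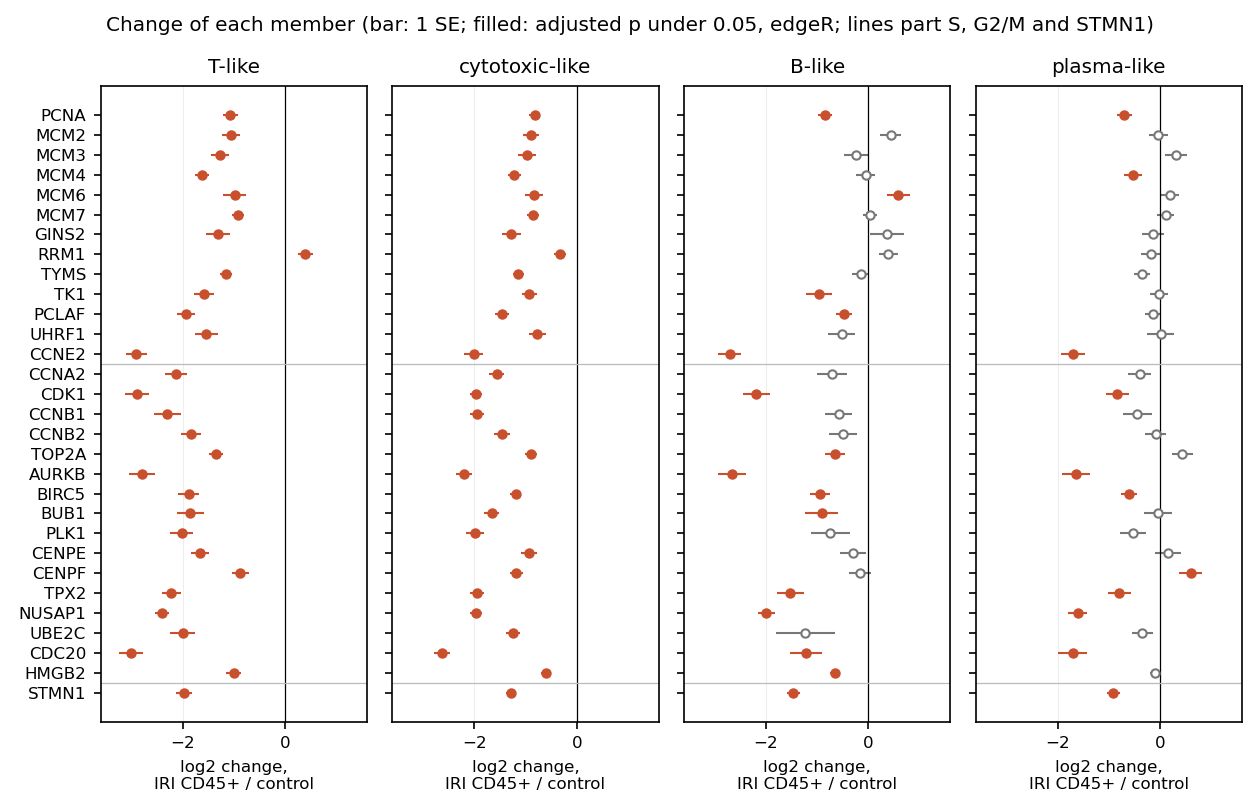
Change of each member between IRI CD45+ and control (x axis, log2, bar 1 SE) in T-like, cytotoxic-like, B-like and plasma-like cells, filled where the edgeR adjusted p was under 0.05. All points but RRM1 in T-like cells lie left of 0 in the first 2 panels, and in plasma-like cells CCNE2, AURKB, NUSAP1 and CDC20 lie furthest to the left.

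In B-like cells 14 of 30 members fell, where 25.2% of all genes fell, and 1 rose, where 21.7% rose. The lower members included 4 of 13 S and 9 of 16 G2/M members, and STMN1. PCLAF stood at 110, 149 and 143 CPM against 97.7 and 101. The helicase subunits did not follow: MCM6 rose from 28.0, 54.8 and 63.2 to 72.8 and 77.2, a log2 change of 0.58 (edgeR adjusted p = 0.038), and MCM2 stood at 34.1, 33.5 and 33.8 against 44.9 and 48.4 without passing. The MCM6 call was lost in 6 settings, among them DESeq2, leaving out any 1 of control replicates 1 and 2, and leaving out either graft library.

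Plasma-like cells had 10 of 30 members lower, against 20.9% of all genes, and 1 higher, against 14.8%. PCLAF stood at 300, 261 and 401 CPM in the controls and at 298 and 330 in the grafts. TOP2A stood at 137, 103 and 152 against 145 and 235, and CCNB1 at 62.5, 71.8 and 65.6 against 30.1 and 75.4. All 3 overlapped. CENPF, the member that rose, stood at 46.9, 49.4 and 45.7 against 53.5 and 102, and its call (edgeR adjusted p = 0.049) was lost without any 1 control, without IRI CD45+ replicate 2 and with DESeq2.

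The members that did fall in plasma-like cells were PCNA, MCM4, CCNE2, CDK1, BIRC5, AURKB, NUSAP1, TPX2, CDC20 and STMN1. CCNE2 stood at 90.1, 82.6 and 94.8 CPM against 20.1 and 39.4. NUSAP1, which bundles spindle fibres, stood at 164, 177 and 215 against 55.8 and 75.4. AURKB, the kinase that corrects faulty attachments of chromosomes, stood at 45.7, 46.5 and 51.4 against 12.3 and 20.8. CDC20 stood at 34.7, 39.7 and 46.8 against 14.5 and 12.02. The log2 changes of these 4 ran from -1.61 to -1.71.

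Counted over the 11 classes with a fit, STMN1 fell in all 11, CCNE2 in all 10 where it was tested and TPX2 in all 7. AURKB fell in 9 of 10, NUSAP1 in 9 of 11 and CDC20 in 6 of 7. The AURKB count includes macrophage-like, dendritic-like and endothelial-like cells, where AURKB had no UMI in the grafts. In those classes it passed the filter on low counts through the controls alone. BIRC5 and MCM4 fell in 7 of 8, PCLAF in 7 of 9, PCNA in 7 of 11, CDK1 in 6 of 8, TOP2A in 5 of 9 and RRM1 in 1 of 10. AURKB did not pass in smooth muscle/pericyte-like cells (edgeR adjusted p = 0.051), nor CDC20 in dendritic-like cells (edgeR adjusted p = 0.069). Per class, 11.8% to 31.2% of all genes fell, but the number of classes in which each other gene fell is not given here. Classes where a gene could be tested also differ between genes, so these counts rank nothing. In plasmacytoid dendritic-like cells, where 7 members could be tested and 3 fell (14.1% of all genes fell), those 3 were CCNE2, NUSAP1 and STMN1. In mast/basophil-like cells PCNA, AURKB, NUSAP1 and STMN1 fell, 4 of 5 tested, against 13.8% of all genes. In macrophage-like cells, AURKB had no UMI in the grafts and stood at 16.1, 24.6 and 22.6 CPM in the controls, at least 4.97-fold higher than a floor of 3 counts over both graft libraries.

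Members differed in how often they were found together with the rest. In thinned control immune cells, 94.8% of cells with a UMI of UBE2C had 3 or more other members, as had 91.2% for TK1, 88.8% for TPX2 and 87.9% for PCLAF. CDC20 was at 74.4%, against 30.4% of cells without it, AURKB at 58.6% against 30.3% and STMN1 at 47.6% against 14.6%. HMGB2, the most widely detected member, was at 37.4% against 9.80%, and PCNA at 37.9% against 23.2%. For NUSAP1 it was 34.5% against 28.0%, and for CCNE2 35.0% against 29.6%. In IRI CD45+ immune cells NUSAP1 was at 17.5% against 10.1% and CCNE2 at 19.2% against 10.5%. NUSAP1 also reached 53.0 CPM in AT2-like cells, in which TOP2A stood at 0.675.

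**Figure D5:**
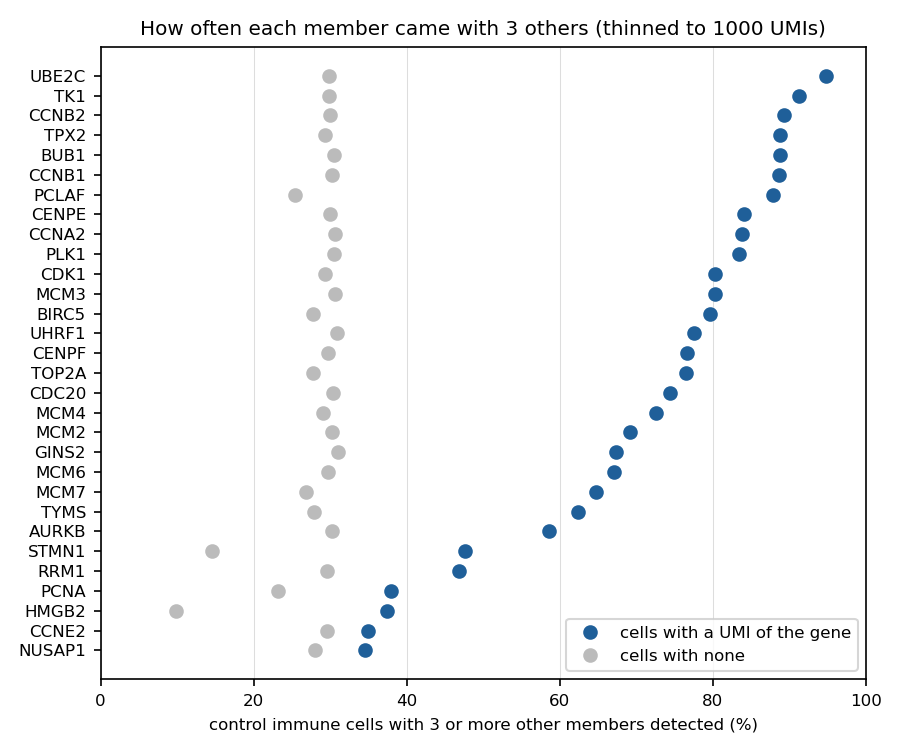
Share of control immune cells with 3 or more other members detected (x axis, %), among cells with a UMI of the gene (blue) and among cells with none (grey), after thinning to 1000 UMIs. UBE2C lies highest at 94.8%, and NUSAP1 and CCNE2 lie lowest at 34.5% and 35.0%, close to their grey points.

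RefSeq (Sscrofa11.1, the build the submitters name) places 11 of the 30 members over another gene. NUSAP1 (chromosome 1, 129992797 to 130065641) overlaps NDUFAF1 and OIP5, CCNE2 (chromosome 4, 41802090 to 41821870) overlaps INTS8, and AURKB (chromosome 12, 53410833 to 53426165) overlaps 4 transfer RNA genes. Which strand was counted is not given in the sources used here, so UMIs of such pairs are uncertain, and their part in these changes was not tested. CDC20 (chromosome 6, 167886266 to 167890587) and STMN1 (chromosome 6, 83356404 to 83362546) overlap no gene there. Without AURKB, CCNE2, CDC20 and NUSAP1, a choice made after seeing these values, the share with 3 or more members stood 28.0 percentage points lower in graft cytotoxic-like cells, 17.5 lower in T-like and 11.9 lower in B-like cells, and 3.09 higher in plasma-like cells.

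In macrophage-like cells 16 of 30 members fell and none rose, where 15% of all genes fell and 10.5% rose. Only 36 and 31 graft cells were summed. AURKB, CENPF and BUB1, with no UMI in the grafts, passed the filter on low counts through the controls alone, and without these 3, a count added after seeing the values, 13 of 27 fell. PCLAF stood at 49.5, 68.6 and 43.8 CPM against 27.2 and 3.76, and STMN1 at 243, 285 and 189 against 54.4 and 30.1. CENPF and BUB1 were at least 4.74-fold and 1.98-fold lower than the control means against the same floor. The median change was -2.15 with genes at 0 set to that bound, beside -0.28 over all genes. With sums thinned to the smallest library, 9 members could be tested and 3 fell, and the share of all genes that fell there is not given here. When changes of known size were simulated for this class, 22% of those of 2-fold and 77% of those of 4-fold were recovered. Of the calls made there, 10% were false. The changed genes were drawn only from those above a set mean level. Several members stood under it even in the controls, such as BUB1 at 8.22 and GINS2 at 9.17 normalized CPM. The rates therefore do not describe such members.

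Dendritic-like cells had 13 of 27 members lower and none higher, where 19.8% of all genes fell and 14.8% rose. AURKB and CENPE had no UMI in the grafts, and without them the count was 11 of 25. PCLAF and STMN1 changed by -3.51 and -3.24 on the log2 scale and NUSAP1 by -1.30. The count was 7 when control replicate 2, control replicate 3 or the second IRI CD45+ library was left out, and 20 when the first IRI CD45+ library was. The share of all genes called with a library left out is not given here for this class or the next. Counts with a library left out therefore cannot be set beside it. Cluster 13 had 23 of 30 lower, against 19% of all genes, and none higher, against 17.3%. Without control replicate 2 its count was 13, and without IRI CD45+ replicate 1 it was 15.

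Structural classes could be compared only with 1 graft library, the CD45- sort, whose spread the fit takes from the controls. Of 16 members tested in endothelial-like cells 6 fell, against 12.7% of all genes, and 4 of 12 fell in smooth muscle/pericyte-like cells, against 11.8%. No member rose in either, where 16.9% and 19.7% of all genes rose. In endothelial-like cells AURKB had no UMI in the graft, at least 30.2-fold lower than the control mean of 92.1 CPM, and PCLAF, MCM4, CCNE2, NUSAP1 and STMN1 were the others. CDK1 and CENPE also had no UMI there, and without these 3 the count was 5 of 13. Without control replicate 3 the endothelial-like count was 1. The share of all genes called in that setting is not given here. The control cells lay mostly in clusters 7 and 18 and the graft cells in 31 and 26. In simulated endothelial-like data 3% of 2-fold and 45% of 4-fold changes were found, and 17.2% of the calls were false. These changes too were placed only in genes above a set mean level, under which CDK1, CENPF and CENPE stood in the controls.

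Whether the change itself differed between classes was tested with limma on the difference between 2 classes within each library. Plasma-like against T-like cells, a pair added after seeing the data, gave 6 of 30 members with a higher change in plasma-like cells and 0 with a lower, where 1.09% and 1.51% of all genes passed. These were CDK1 (a difference of 1.98 on the log2 scale), PCLAF (1.81), TOP2A (1.75), CCNB1 (1.72), MCM3 (1.56) and PLK1 (1.43), with limma adjusted p between 0.037 and 0.046. At an unadjusted p under 0.05, 28 of 30 passed in that direction, as did 9.88% of all genes. Without any 1 of the controls no gene at all was called, so the 6 calls were lost. With control replicate 1, 2 or 3 left out, 26, 27 and 27 of 30 members still passed at an unadjusted limma p under 0.05. So did 765 of 9186, 732 of 9242 and 783 of 9185 genes. The 6 calls were also lost without IRI CD45+ replicate 1, which leaves 1 graft library and a median member difference of 1.23.

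Plasma-like against cytotoxic-like cells gave 0 calls by limma in either direction, where 0.2% of all genes were higher and 0.533% lower, with 23 of 30 members higher at an unadjusted p under 0.05, as were 10.2% of all genes. The median member difference was 0.95 with all libraries and 0.83 without IRI CD45+ replicate 1, which leaves 1 graft library. Cytotoxic-like against T-like cells gave 0 calls as well, where 0% of all genes passed either way. At an unadjusted p under 0.05, 4 members were higher and 1 lower, beside 10.5% and 9.66% of all genes, so a difference between those 2 classes was not shown. Macrophage-like against T-like cells gave 1 call, CENPF, with a lower change in macrophage-like cells, where 5.91% of all genes passed in that direction, and no member higher, where 2.33% did. CENPF had no UMI in the graft macrophage-like cells, so that difference has no size of its own. The call was lost without any 1 control, where no gene at all was called. With 1 graft library left, the median member difference was -1.73 without IRI CD45+ replicate 1 and 0.17 without replicate 2.

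Other genes of replication and mitosis were counted from lists of 50 and 82 genes, and each count stands beside the share of all genes tested in that class. In T-like cells, where 31.1% of all genes fell and 27.5% rose, 65 of 75 other mitosis genes tested fell and none rose. Among them were UBE2S, a partner of UBE2C (168 to 54.8 normalized CPM, group means), the kinetochore gene NDC80 (47.3 to 10.02) and CENPU (53.4 to 11.8). Of 48 other replication genes 33 fell and 2 rose, with RFC2 of the clamp loader going from 84.4 to 27.2. In cytotoxic-like cells, at 31.2% and 27.5% of all genes, 66 of 75 mitosis genes fell and 1 rose, and 29 of 49 replication genes fell and none rose.

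B-like cells, where 25.2% of all genes fell and 21.7% rose, had 35 of 74 mitosis genes lower and 1 higher. Their replication genes, 8 of 48 lower and 7 higher, were called no more often than all genes in either direction. In plasma-like cells, at 20.9% and 14.8% of all genes, 17 of 74 mitosis genes fell and 6 rose, and 7 of 49 replication genes fell and 5 rose. These shares were near or under those of all genes. The medians in plasma-like cells were -0.12 for mitosis and 0.22 for replication genes, beside -0.09 over all genes.

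Of 24 genes that brake the cycle, 15 fell and 5 rose in T-like cells, beside the same 31.1% and 27.5%. GADD45A, a stress-induced inhibitor of growth, went from 626 to 149 normalized CPM, TOB1 from 749 to 182 and the CDK inhibitor gene CDKN1C from 52.8 to 3.24. In plasma-like cells 9 of 24 fell and 3 rose, beside 20.9% and 14.8%, GADD45A going from 999 to 142 and CDKN1A from 121 to 25.6. Of 11 G1 cyclins and kinases, which start the cycle, 6 fell and 1 rose in T-like cells. In cytotoxic-like cells 7 fell and 1 rose, beside 31.2% and 27.5% of all genes. In B-like cells 3 fell (27.3%) and 1 rose, beside 25.2% and 21.7% of all genes. In plasma-like cells 2 fell (18.2%) and 0 rose, so the B-like and plasma-like falls were near the shares of all genes. The G1 gene CCNE1 fell in T-like cells from 35.3 to 5.08, in cytotoxic-like cells from 45.0 to 12.9 and in plasma-like cells from 113 to 14.9, and CDK6 rose in cytotoxic-like cells from 49.2 to 104.

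The 10 other genes most like the members were found by comparing cells with 3 or more members with the remaining cells of the same class and library, over 33 pairs of class and library. They were KIF11, with a mean log2 ratio of 2.96, KIF20A, SMC2, SPC24, NCAPH, KIF23, NCAPG, NUF2, CDCA8 and SHCBP1, with 2.42. All 10 were on the list of other mitosis genes, and 38 of the first 40 were on the replication or mitosis lists. Pairs share a library or a class, the lists were chosen with earlier results of these data known, and no test was made.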

How the data were processed

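UMI counts per gene and cell were deposited as 1 matrix per library, written by PISA per the file headers. The submitters' processing notes name Sscrofa11.1, Seurat 5.5.3 and R 4.2.2. No source used here names the aligner or the annotation. Cells with at least 500 UMIs, 200 genes and at most 20% mitochondrial UMIs were kept (40824). Scrublet called at most 55 doublets in a library, under 0.9%, so it did not work in most and doublets remain. Cells were clustered with scanpy 1.11.5 (2000 variable genes, 180 cell cycle genes barred, 30 components, 15 neighbours, Leiden resolution 1.0) and named from marker lists. UMIs were summed per library and class, with at least 20 cells in each, and tested with edgeR 4.0.16 (TMM, robust quasi-likelihood), limma 3.58.1 (prior count 2) and DESeq2 1.42.0 as alternative. The edgeR test was tested on simulated data with 200 changed genes, all drawn from genes with a mean above 20 CPM in the class.

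The members, marker lists and gene lists were chosen with earlier results of these data known. All members are named whatever their result; of each other list, up to 4 genes with the smallest p in a comparison were eligible to be named. Symbols and positions come from RefSeq tables.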

Additional observations from a re-analysis of the deposited data

Results flagged for a closer look

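The change between control and IRI CD45+ differed between classes for 7 values, by limma on per-library differences. In plasma-like minus T-like cells the difference of the log2 changes was 1.98 for CDK1, 1.81 for PCLAF, 1.75 for TOP2A, 1.72 for CCNB1, 1.56 for MCM3 and 1.43 for PLK1. In macrophage-like minus T-like cells the fitted value was -3.56 for CENPF. That gene had no UMI in the 67 macrophage-like cells of the grafts, so the value depends on the prior count and is no size. By a floor of 3 counts over both graft libraries CENPF was at least 4.74-fold lower there than in the controls. All 7 calls were lost without any 1 control, where no gene at all was called in either pair. The 6 plasma-like calls were also lost without IRI CD45+ replicate 1, which leaves 1 graft library.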

How the results depend on the processing

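The lower shares and levels of cytotoxic-like, T-like, cluster 13 and B-like cells kept their direction under every alternative run. In plasma-like cells the share difference turned positive with 4 or more members (0.347 percentage points), 6 or more (0.603), without HMGB2, STMN1 and PCNA (2.36), without AURKB, CCNE2, CDC20 and NUSAP1 (3.09) and with the top 6% of doublet scores removed (0.252), and ran from -3.63 to 3.27 with 1 library left out. Plasmacytoid dendritic-like cells gave 0.272 with 4 or more members and -7.48 to 0.851 with 1 library left out, and mast/basophil-like cells 0.510 with 6 or more. As CPM over all genes listed, plasma-like S and G2/M levels changed by 0.20 and 0.21. The G2/M to S ratio changed by -0.41 in cytotoxic-like and -0.30 in plasma-like cells without HMGB2, STMN1 and PCNA, and with 1 library left out ran from -0.395 to 0.0170 in T-like and from -0.0411 to 0.0686 in plasma-like cells. The mast/basophil-like G2/M level changed by 0.0244 without AURKB, CCNE2, CDC20 and NUSAP1, and by -1.19 to 0.0191 with 1 library left out. The settings with 6 or more members, without AURKB, CCNE2, CDC20 and NUSAP1, with CD3D or CD3E, the ratio and the plasma-like pairs were chosen after seeing the data.

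Clusters made with cell cycle genes left 6 lower and 16 higher members in cytotoxic-like cells (PCLAF 0.45, TOP2A 1.95, CCNB1 0.95) and 0 higher in plasma-like cells. DESeq2 gave 0 higher members in T-like, B-like and plasma-like cells and 2 lower in both endothelial-like and smooth muscle/pericyte-like cells. Higher calls in T-like cells were 0 with no scaling and 0 in cells with CD3D or CD3E. With no filter B-like cells had 2 higher, plasma-like cells 0 higher and plasmacytoid dendritic-like cells 6 lower. With thinned sums B-like and plasma-like cells had 0 higher, dendritic-like cells 8 lower and macrophage-like cells 3 lower; with top doublet scores removed plasma-like cells had 0 higher. At a prior count of 0.5, macrophage-like against T-like cells gave 2 lower and plasma-like against cytotoxic-like cells 2 higher. The shares of all genes called under these settings, with a library left out or with the replicate block are not given in this section, and the cause was not tested.

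With 1 library left out, higher calls ran from 0 to 1 in T-like, B-like, dendritic-like, plasmacytoid dendritic-like and mast/basophil-like cells and from 0 to 2 in plasma-like cells. Lower calls ran from 13 to 25 in cluster 13, 7 to 20 in dendritic-like, 10 to 13 in macrophage-like, 3 to 5 in plasmacytoid dendritic-like, 1 to 8 in endothelial-like and 2 to 5 in smooth muscle/pericyte-like cells. Class differences ran from 0 to 7 for plasma-like against T-like, 0 to 8 for plasma-like against cytotoxic-like, and 0 to 4 higher and 0 to 14 lower for macrophage-like against T-like cells.

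Deviations of same-numbered libraries from their group means had correlations of -0.05 to 0.07. With only 2 graft libraries, the deviations of each are the reverse of the other's. These values therefore cannot decide whether same-numbered libraries belong together. With the replicate block, lower members were 29 in T-like, 29 in cytotoxic-like, 20 in cluster 13, 17 in B-like, 9 in plasma-like, 12 in macrophage-like, 7 in dendritic-like, 3 in plasmacytoid dendritic-like and 2 in mast/basophil-like cells. Depth left 7 members testable in plasmacytoid dendritic-like and 5 in mast/basophil-like cells.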
